A study of Drosophila melanogaster with 2 samples.

Results

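The 10 genes described here encode the core of the Drosophila Notch pathway and its co-repressor Groucho. They are the ligand Delta (Dl), the receptor Notch (N), neur, kuz, fng, numb, Su(H), mam, Hairless (H) and gro. They were taken by name from the Ensembl BDGP6 annotation, 10 of 13968 protein-coding genes on the chromosome arms. Delta was matched through another of its names. A peak was counted for a gene when its summit fell inside the gene or in the 2 kb before the gene's start.

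Chromatin immunoprecipitation followed by sequencing (ChIP-seq) had been run on whole Drosophila melanogaster embryos of 0 to 24 h, in 1 group of 2 biological replicates. Both replicates carried the same transgene, which encodes a fusion of the protein Bgb (Big brother) with eGFP, an enhanced form of green fluorescent protein. The labels differ on the antibody, with GFP named in their free text and Bgb in their antibody entry. The series has no second condition, and its control libraries were not analysed here. All cell types and all stages of embryogenesis were pooled in each sample, so a peak cannot be assigned to a cell type or a time. No driver of the transgene is given in the labels, and the level of the fusion protein is unknown.

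Bgb, related to mammalian CBF-beta, is a partner of Runt domain transcription factors and does not itself contact DNA. In Notch signalling a ligand on one cell binds the receptor on its neighbour. The receptor is then cleaved, and its intracellular domain joins Su(H) and Mastermind in the nucleus to activate genes such as those of the Enhancer of split, E(spl), complex. Without the signal Su(H) is held in a repressing complex by Hairless, which brings in Groucho. Groucho is also the co-repressor of Hairy-type proteins and of Runt domain proteins, which contact it through a short motif at their end.

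Peaks of the authors' conservative list, thresholded on the irreproducible discovery rate (IDR), lay at or near the start of all 10 genes. The signal of the strongest peak, in the authors' own units, ran from 82.2 at Dl to 486 at mam. The genes mam, Su(H) and gro and the receptor gene N had the higher signals. The ligand gene Dl, the glycosyltransferase gene fng and H, a co-repressor gene like gro, had the lower ones. The sequences at 4 of the summits are shown first because they hold the motif that occurred at the strongest peaks of mam, Su(H), gro and neur. These are 4 of the 10 genes, counted at the strongest summit of each. Of all 24 conservative summits counted for the 10 genes, 6 hold the motif within 50 bp, beside 38.1% of all conservative summits.

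Each 30-base site is printed 5′ to 3′ in the direction of the Notch pathway gene, from the RefSeq release 6 (dm6) genome, with motif matches in capitals. The neur site, chr3R:9038847-9038876 on the minus strand, lies in an intron of neur at its strongest summit. The first Su(H) site, chr2L:15039478-15039507 on the plus strand, spans the gene start. The other, chr2L:15038883-15038912, lies upstream at the peak next to the start of CIAPIN1. The gro site, chr3R:26041719-26041748 on the plus strand, also spans the gene start.
neur intron: tcgcgttagtgtCGATAGtttttgttactt
Su(H) start: ataagcgcCTATCGgaCTATCGATAcaaca
Su(H) upstream: gattgtacctgcCTATCGgattgcaaatga
gro start: gCGATAAcagaccctcgacacatCGATAGg
The capitals mark CGATAA or CGATAG on either strand (CTATCG and TTATCG are the reverse), a sequence known to bind the insulator protein BEAF-32. In the Su(H) start site they also mark TATCGATA, a sequence known to bind the factor DREF, which there overlaps the second CTATCG.

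For comparison, the non-transcribed bases at other summits are shown, again from the dm6 genome and in the direction of the gene. The N summit, chrX:3134644-3134764 on the plus strand, ranked next after mam, Su(H) and gro and is given in full because it holds none of the motifs. The bases just before the N start, near its weaker summit, are chrX:3134845-3134869, where the capitals mark GGTCACAC, a sequence bound by M1BP. At numb, chr2L:9437385-9437468 on the plus strand, they mark a run that holds GAGAGA in reverse, the sequence of GAGA factor. The Dl stretch is chr3R:19326218-19326254, on the minus strand, and the H stretch is chr3R:20621835-20621937, on the plus strand. Neither holds a capital.
N, upstream summit: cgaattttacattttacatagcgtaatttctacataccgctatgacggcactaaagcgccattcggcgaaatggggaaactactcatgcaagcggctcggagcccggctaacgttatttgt
N, bases before the start: gacgcGGTCACACtgccgatttgaa
numb, first start: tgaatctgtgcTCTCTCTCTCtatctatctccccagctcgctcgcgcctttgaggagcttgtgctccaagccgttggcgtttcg
Dl, bases before the start: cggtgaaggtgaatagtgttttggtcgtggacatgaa
H, upstream summit: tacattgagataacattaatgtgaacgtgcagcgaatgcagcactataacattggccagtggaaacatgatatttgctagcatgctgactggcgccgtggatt

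All 10 genes had a peak in the conservative list, where 37.4% of all protein-coding genes had one. The genes were chosen with earlier results of these data known, so this count is a description. The 10 genes also had a peak in the second, less strict series list (background 45.2%) and in the list of replicate 1 alone (background 43.7%). In the list of replicate 2 alone 7 of the 10 did, against 29.5% of all genes. The 3 without one were Dl, fng and H, the genes with the lowest signals. The same 7 genes had a peak in both replicates' own lists, where 28.3% of all genes did.

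The windows of these genes ran from 5.85 kb at Su(H) to 91.3 kb at kuz. Genes with long windows had a peak more often, and whether length bears on the count of 10 was not tested. All 10 also had a conservative summit within 1 kb of a start of their own, a share not computed over all genes. The median window of the 10 genes was 25.6 kb, against 4.16 kb over all genes and 5.18 kb over genes with a peak. Of the 867 genes whose window was at least as long as that median, 54.7% had a peak. The median of the strongest signals was 252 over the 10 genes and 186 over the 5223 genes with a peak. The conservative list as a whole held 4488 peaks with a median signal of 144 and a maximum of 1962.

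**Figure D1:**
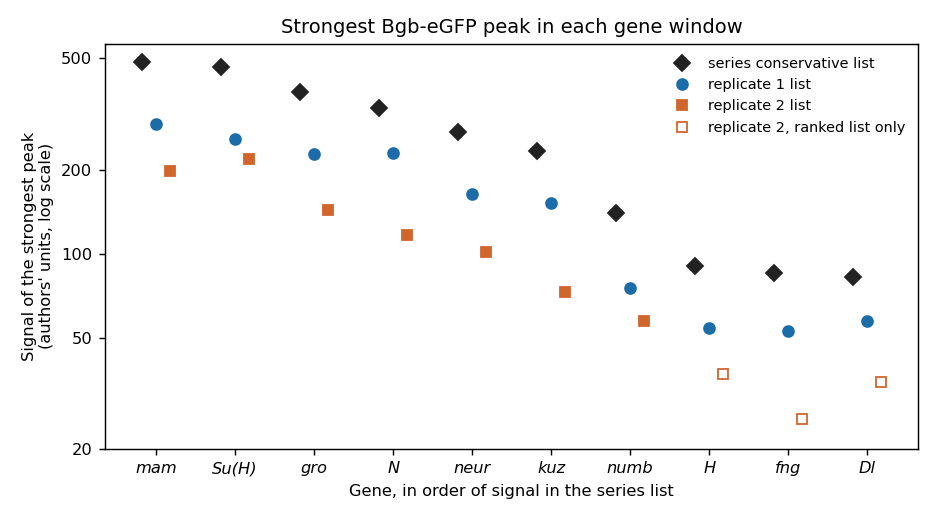
Signal of the strongest peak in each gene window (authors' units, log scale) for the 10 genes, in the series conservative list (diamonds) and in the lists of replicate 1 (circles) and replicate 2 (squares). Open squares are peaks found only in the unthresholded ranked list of replicate 2, at H (37.1, from another position in the H window), fng (25.6) and Dl (34.8). Replicate 1 lies above replicate 2 at every gene.

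Dl encodes the transmembrane ligand Delta. Its single conservative peak (3R, 19326006 to 19326381) had its summit in the 5′ UTR, 23 bp downstream of the start. The signal was 82.2 in the series list, 57.5 in replicate 1 and 34.8 in replicate 2, where the peak was present only in the ranked list without a threshold. That placed it at rank 3742 of 4488, higher than 16.6% of the list, the lowest of the 10 genes.

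neur encodes Neuralized, a ubiquitin ligase that drives endocytosis of Delta in the signal-sending cell. Its 2 conservative peaks lay on either side of its start (3R, 9039471, minus strand), and neither was nearest to it. The stronger, with a signal of 273 (164 in replicate 1 and 101 in replicate 2), lay 607 bp inside the gene in an intron. There hyx, which encodes a subunit of the Paf1 elongation complex and is read in the opposite direction, has a start of its own 104 bp away. The other peak had a signal of 157 (90.6 and 61.4) and lay 202 bp upstream of neur and 93 bp from the other start of hyx. Since both genes have starts here and overlap, the peaks cannot be assigned to one of them. The less strict series list held a further summit of 107 only 18 bp from the second start of neur, 5740 bp inside the gene. Replicate 1 had that peak too (93.0), and the list of replicate 2 did not.

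N encodes the receptor. Its strongest peak (X, 3134554 to 3134839) lay 166 bp upstream of the single annotated start, with a signal of 333, 229 in replicate 1 and 117 in replicate 2. It ranked 777, above 82.7% of the list. A further conservative peak of signal 2.83 had its summit 35 bp downstream of the start. Its interval overlapped the first, and neither replicate had a separate peak there. The rest of the 37.4 kb gene held no conservative peak.

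kuz encodes the ADAM metalloprotease Kuzbanian, which makes the first ligand-dependent cut in Notch. Its strongest peak lay 14 bp downstream of the start (2L, 13550139), in the 5′ UTR, with a signal of 232, 152 in replicate 1 and 73.1 in replicate 2. A second peak, of 156 (122 and 43.4), was 60 bp from the start of the divergent neighbour B4. The third, of 88.1, lay 725 bp from another start of B4. Replicate 1 gave 62.0 there, and replicate 2 gave 33.2 in its ranked list only. All 3 kuz peaks lay within 2 kb of the gene start, and the rest of the 89.3 kb gene had none.

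fng encodes Fringe, a glycosyltransferase that extends O-fucose on Notch and alters its response to the ligands. It had 1 peak, 45 bp downstream of its start (3L, 20949512, minus strand) in the 5′ UTR. The signal was 85.4 in the series list, 52.8 in replicate 1 and 25.6 in the ranked list of replicate 2. It ranked 3635, above 19.0% of the list.

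numb encodes a membrane-associated inhibitor of Notch that is passed to one daughter in asymmetric divisions. It has 2 annotated starts, and both had a conservative summit near them. The stronger lay 70 bp past the second start (2L, 12361 bp inside the gene), with a signal of 140, 75.4 in replicate 1 and 57.2 in replicate 2. The other lay 24 bp upstream of the first start, with 112 (60.8 and 45.4). In each replicate the inner start was the higher. A summit of signal 10.1 at 181 bp inside the gene had no peak of its own in either replicate and was not in the less strict list.

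Su(H) encodes the DNA-binding protein of the pathway, the partner of cleaved Notch and of Hairless. Its strongest peak (2L, 15039331 to 15039586) lay 22 bp upstream of the start and had a signal of 465, 258 in replicate 1 and 218 in replicate 2. It ranked 410, above 90.9% of the list. The ratio of replicate 1 to replicate 2 there was 1.18, below the 1.60 that was the median over the list. A second peak, of 112 (85.5 and 51.3), lay 585 bp upstream of Su(H) and 42 bp from the start of CIAPIN1, a gene for iron-sulfur cluster assembly.

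mam encodes Mastermind, the co-activator that binds the complex of Su(H) and cleaved Notch. It had the strongest peak of the 10 genes and the most peaks. The peak (2R, 13990980 to 13991248) lay 78 bp upstream of the first start, with a signal of 486, 292 in replicate 1 and 198 in replicate 2. It ranked 375, above 91.6% of the list. A weaker summit of 37.0 (42.5, ranked list only, and 32.7) lay 637 bp upstream of mam. It was 141 bp from a start of the divergent gene RN-tre, which encodes a regulator of Rab GTPases. This summit was not in the less strict list, and the replicate 2 summit matched to it lay 122 bp away.

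The other 6 mam peaks lay inside the gene, which is 69.2 kb long and has 3 annotated starts. The strongest of these had a signal of 263 (187 in replicate 1 and 65.5 in replicate 2), 15786 bp inside the gene in an intron and 2210 bp from the second start. A peak of 175 (126 and 40.5) lay 753 bp upstream of the second start, and one of 142 (104 and 37.4, the latter ranked only) lay 2 bp from the third. So a conservative summit was found within 1 kb of each of the 3 starts. The remaining 3 intronic peaks, of 98.6, 96.5 and 65.8, were 3460 to 9772 bp from the nearest coding start, which was that of CG18371 for the peak of 98.6 and of mam for the others. They were in the thresholded list of replicate 1 but only in the ranked list of replicate 2.

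The count of mam peaks depended on the replicate. It was 8 in the conservative list and 11 in the less strict list, 12 in replicate 1 and 4 in replicate 2. Of 183 genes with a window as long or longer, mam included, the median number of conservative peaks was 1, 77 had none and 3 had 8 or more. All 4 of the summits in these 10 windows that lay over 1 kb from any coding start were in mam introns. Those of 96.5 and 263 lay 242 and 983 bp from annotated starts of the microRNA mir-4978, which lies inside mam. At these 4 the median ratio of replicate 1 to replicate 2 signal was 2.50, beside 1.45 over the 662 such peaks of the whole list.

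**Figure D2:**
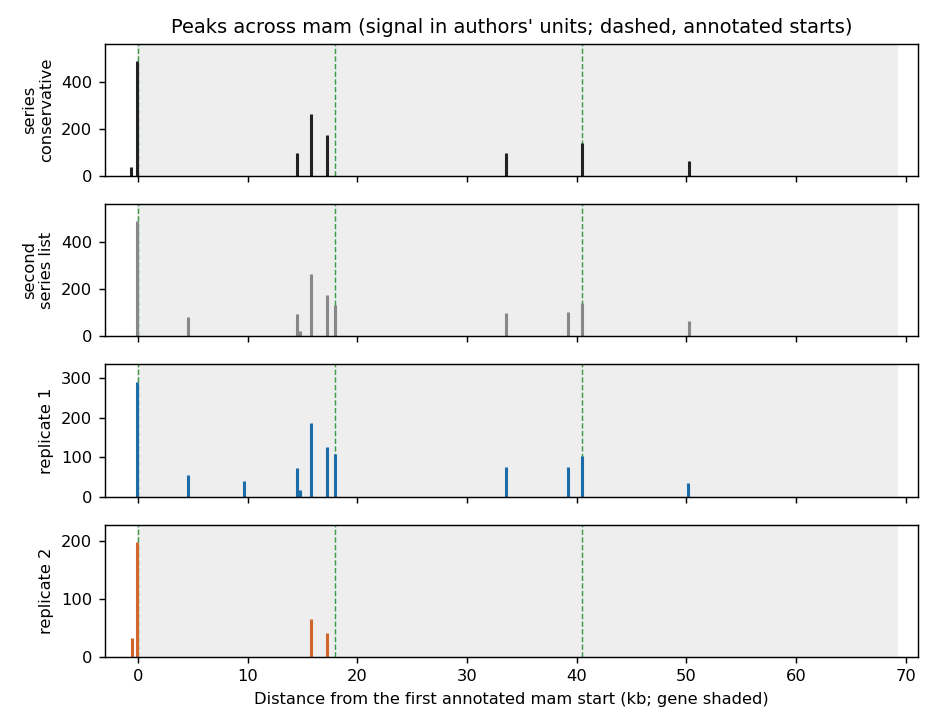
Peaks across the mam gene: horizontal axis, distance from the first annotated start in kb (gene shaded, the 3 annotated starts dashed); vertical axis, signal at each summit in the authors' units. The start peak is the highest in all 4 lists, and 11 peaks of replicate 1 but 2 of replicate 2 lie inside the gene.

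H encodes Hairless, the adaptor that holds Su(H) in its repressing form. It had 1 peak, 43 bp upstream of the start (3R, 20621938), with a signal of 90.0, 54.4 in replicate 1 and 26.5 in the ranked list of replicate 2. It ranked 3500, above 22.0% of the list.

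gro encodes the Groucho co-repressor. It too had a single peak (3R, 26041581 to 26041819), 34 bp upstream of the first of its 4 annotated starts, which lie within 1084 bp. The signal was 380 in the series list, 228 in replicate 1 and 143 in replicate 2. It ranked 622, above 86.1% of the list. The summit positions in the 2 replicates and the series list fell within 5 bp of each other.

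In the series list the order of the strongest peaks was mam, Su(H), gro, N, neur, kuz, numb, H, fng and Dl. Some neighbours in this order were not separated by the replicates. Su(H) was above mam in replicate 2 (218 against 198), and N was above gro in replicate 1 (229 against 228). In replicate 1 Dl was above H and fng, where the series list had it below both. The order neur, kuz, numb was the same in both replicates, and these 3 lay below N and above H, fng and Dl in each.

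The signal was higher in replicate 1 at all 22 of the 24 conservative peaks that could be matched in both replicates, as at 92.3% of the 4251 matched peaks of the whole list. The ratio ran from 1.01 to 3.12 with a median of 1.77, and the median over the list was 1.60. Between its 5th and 95th percentiles the list ran from 0.925 to 2.90. No scaling between the libraries is stated, so the ratio cannot be told apart from a difference in depth or enrichment. Replicate 1 had 21 of the 24 peaks in its thresholded list and replicate 2 had 14, with 8 more in its ranked list only.

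Summits clustered at gene starts. Of the 24 conservative summits in the 10 windows, 20 lay within 1 kb of a coding start and 14 within 100 bp, with a median distance of 74 bp. Over the whole list 84.4% lay within 1 kb and the median was 61 bp. Of the 20 close summits 10 were upstream of the start and 10 downstream. Those downstream include the summits of 2.83 at N and 10.1 at numb, which had no peak of their own in either replicate. Of the 3788 close summits of the list 69.4% were upstream. The nearest coding start was that of the Notch pathway gene itself for 17 of the 24.

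**Figure D3:**
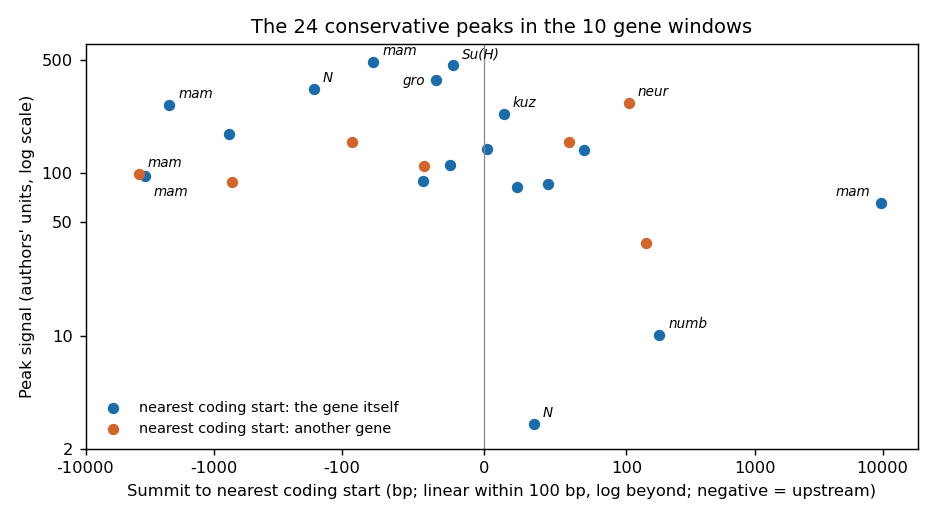
Each of the 24 conservative peaks in the 10 gene windows, with its distance from the nearest coding start on the horizontal axis (bp, linear within 100 bp and logarithmic beyond, upstream negative) and its signal on the vertical axis (authors' units, log scale). Blue points are nearest to the gene itself and orange points to another gene; the strongest and weakest points and those over 1 kb away carry the gene name, and all 4 of the distant ones are in mam.

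The 7 other summits were nearest to a neighbour, and 6 of these were at hyx, B4, CIAPIN1 or RN-tre. Each of these neighbours is divergent, that is, it is read in the opposite direction from a start next to that of the gene. A divergent coding start lay within 1 kb upstream of 4 of the 10 genes. The starts were 295 bp apart for neur and hyx, 496 bp for mam and RN-tre, 627 bp for Su(H) and CIAPIN1, and 811 bp for kuz and B4. Over all coding genes 35.2% had a divergent start within 1 kb, and over genes with a peak 53.7% did. At Su(H), mam and kuz the peak at the gene's own start was the stronger of the pair in both replicates.

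**Figure D4:**
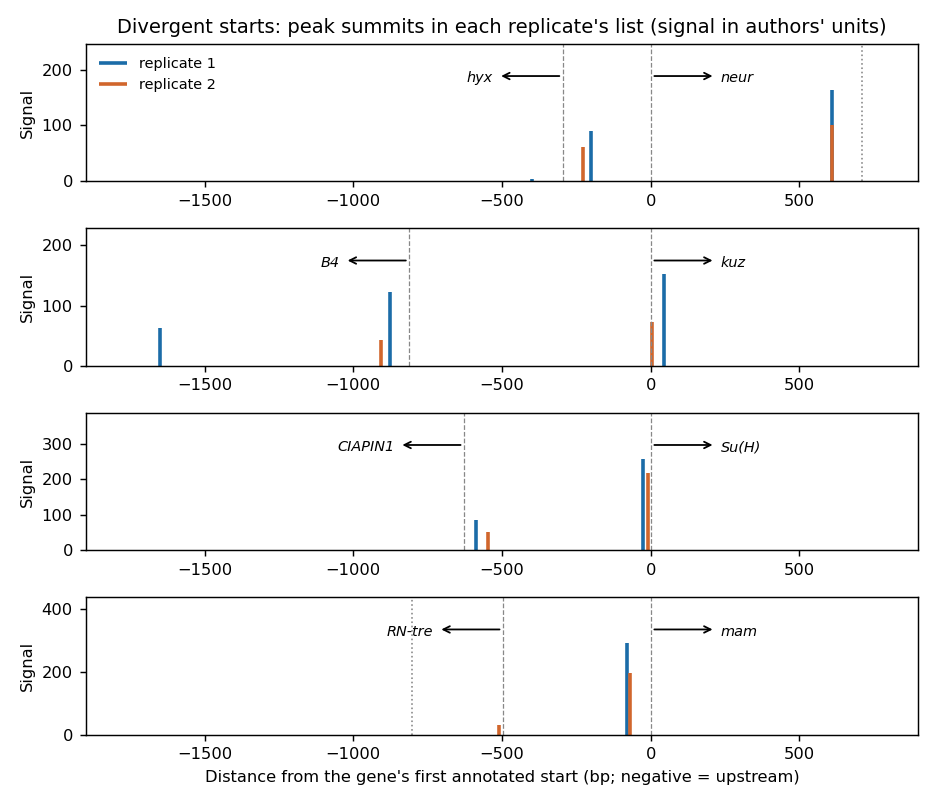
Peak summits of replicate 1 (blue) and replicate 2 (orange) around the 4 divergent gene pairs: horizontal axis, distance in bp from the first start of the Notch pathway gene, with both starts dashed and further starts of the neighbour dotted; vertical axis, signal in the authors' units. At Su(H), mam and kuz the higher summit in each replicate is at the gene itself, while the higher neur summit (164 and 101) is near a hyx start inside neur.

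Of the 6 motifs searched on both strands within 50 bp of each summit, CGATAA or CGATAG was the most frequent. It occurred at 6 of the 24 summits, beside 38.1% (exact 95% interval 36.6 to 39.5) of the 4488 summits of the list. The 6 were the start peak of mam and one of its intronic peaks, both peaks of Su(H), the gro peak and the stronger neur peak. Their median signal was 326 (112 to 486), and that of the 18 summits without it was 97.5 (2.83 to 333). Over the whole list the medians were 238 with the motif and 116 without. TATCGATA, which can overlap it, occurred at 1 of the 24, the Su(H) start, beside 15.2% of the list.

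The sequences known for Runt domain proteins and for Su(H) were found at 1 and 0 of the 24 summits. The Runx consensus (AACCACA, with A or G in the first and the fifth place), bound by Runt domain proteins, occurred at 1 of the 24 summits, an intronic peak of mam with a signal of 96.5, beside 4.72% of the list. With the less strict list it occurred at 2. The Su(H) consensus (CGTGAGAA, with C or T in the first place and A or G in the fifth) occurred at none, beside 0.980% of the list. GGTCACAC occurred at none within 50 bp, beside 4.32%. GAGAGA occurred at 3, the first start of numb and 2 intronic peaks of mam, beside 4.43%. A match of this kind is a description of the sequence, and its absence says only that these letters are not in the window.

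In the 250 bp upstream of the gene start, whether or not a summit lay there, the same letters were searched. The Runx and Su(H) sequences were in none of the 10, beside 8.61% and 2.53% of all genes. CGATAA or CGATAG was in 2 (mam and gro) beside 31.0%. GAGAGA was in 4 (Dl, kuz, fng and numb) beside 10.8%, and GGTCACAC in 1 (N) beside 4.20%. TATCGATA was in none, beside 7.99%. The strongest signals were 380 and 486 at gro and mam, and 82.2 to 232 at the 4 genes with GAGAGA. At the genes with neither GAGAGA nor CGATAA or CGATAG upstream they were 465 at Su(H), 333 at N, 273 at neur and 90.0 at H. Of these, Su(H) and neur hold CGATAA or CGATAG at their strongest summits, though not within these 250 bp.

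Among 40 further genes of the pathway, 17 (42.5%) had a conservative peak, near the background of 37.4%. The count was 21 in the less strict list (52.5%, background 45.2%) and 21 in replicate 1 (52.5%, background 43.7%). It was 12 in replicate 2 (30.0%, background 29.5%) and 12 in both (background 28.3%). For 10 of the 40 a summit was nearest to the gene's own start, a measure for which the share of all genes was not computed. By role, genes for endocytosis of the ligand had a peak in 3 of 3 cases, each nearest to a start of its own, and target genes of the E(spl) and Bearded complexes in 1 of 12 and 0 of 4, all beside the 37.4% of all genes. Windows were 7.26 to 17.7 kb at the endocytosis genes. At the genes of the 2 complexes they were 2.53 to 3.77 kb, below the median of 4.16 kb over all genes. Whether window length bears on these counts was not tested.

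The auxilin gene aux had the strongest peak of these genes, with a signal of 1160 (783 in replicate 1 and 386 in replicate 2) in an intron, 50 bp from the second of its 2 annotated starts, which lies inside the gene. The ubiquitin ligase gene mib1 had 524 (327 and 192) and lqf, which encodes epsin, 229 (149 and 64.6). All 3 act on Delta endocytosis alongside neur. Ser, which encodes the other ligand Serrate, had no peak in any thresholded list, and its highest ranked signal was 41.4.

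Of the genes that modify or cut the receptor, most of those with a peak had it nearest to the start of a neighbour. The O-glucosyltransferase gene rumi had 181 at its own start, and shams, for a xylosyltransferase, had 132 nearest to CG11920. O-fut1, the O-fucosyltransferase gene, had none. Among the gamma-secretase genes, nct had 348 nearest to CG7006, pen-2 177 nearest to Ote and aph-1 none. Psn had 77.4 at one of its own starts and 82.4 nearest to CG5262. The ADAM protease gene kul had 175 nearest to Naa40, and Tace had none.

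Regulators of receptor trafficking had a peak in 4 of 6 cases (background 37.4%), and for 2 of the 4 it was nearest to another gene. The ubiquitin ligase gene Su(dx) had 543 (345 in replicate 1 and 196 in replicate 2), 57 bp from its start, and its relative Nedd4 had 229, 39 bp from the second of its 3 annotated starts, also inside the gene. The kinase gene Nak had 318 nearest to Tango6 and lgd 121 nearest to Reps, and dx and spdo had none. The nuclear cofactor genes were weaker, with 86.8 in an intron at nej, the gene for the acetyltransferase CBP, and a pair of peaks at Smr. Of these, 1 of 98.4 lay in an intron with CG15725 as the nearest coding start, and 1 of 38.4 lay upstream, nearest to CG4004. CtBP had no conservative peak and 3 in the less strict list. Smr, nej and CtBP had no peak in the list of replicate 2.

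The known targets of the pathway beside gro had low signals. The E(spl) complex, most of whose genes encode Bearded-type proteins or Hairy-type repressors that act through Groucho, occupies 44.1 kb immediately left of gro. Its 12 genes had 1 conservative peak among them, at E(spl)mbeta-HLH, 29 bp inside the gene, with a signal of 97.5, 64.0 in replicate 1 and 31.9 in the ranked list of replicate 2. The nearest of them to gro, E(spl)m8-HLH, ends less than 1 kb from its start and had none. In the less strict list 4 of the 12 had a peak (background 45.2%), in replicate 1 alone 3 (43.7%) and in replicate 2 alone none (29.5%). Across the 52.3 kb from the complex to the end of gro the strongest peak outside gro, those of the ranked list included, was 97.5, beside 380 at gro.

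**Figure D5:**
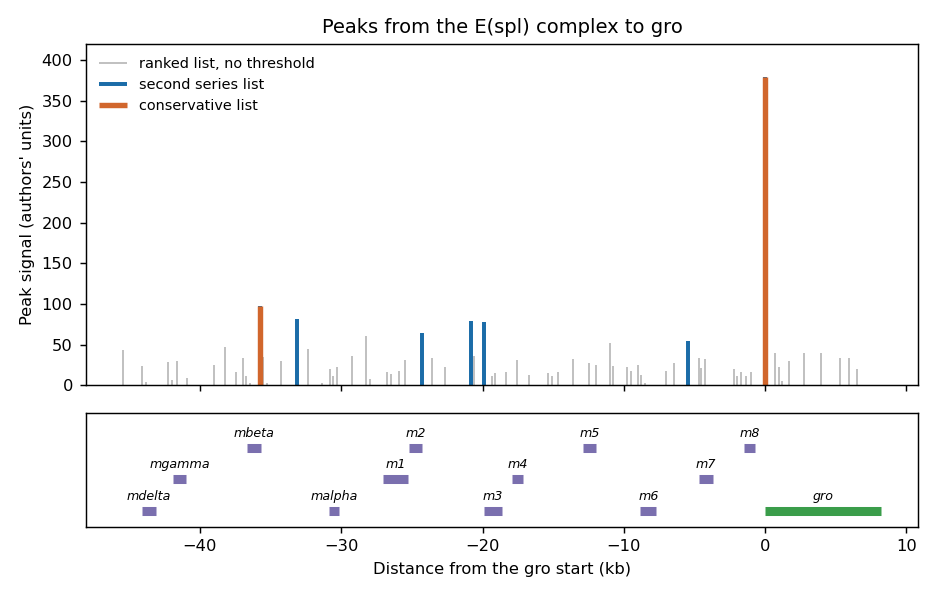
Peaks from the E(spl) complex to gro: horizontal axis, distance from the gro start in kb; vertical axis, signal in the authors' units, for the conservative list (orange), the less strict series list (blue) and the ranked list without a threshold (grey). Gene bodies are drawn beneath; gro stands at 380 and no other peak exceeds 97.5.

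Hairy (hry), a further partner of Groucho, had a peak of 139 (107 in replicate 1 and 41.7 in the ranked list of replicate 2) 31 bp inside the gene, and dpn had none. The 4 Bearded complex genes Brd, Tom, Ocho and BobA had no peak in any thresholded list. Read depth is unknown from the deposited lists, so a gene without a peak is one at which none was detected here.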

How the data were processed

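Per the deposited README and labels, the authors made peak lists on dm6 from 2 Bgb-eGFP ChIP-seq samples: for the series a conservative list, a less strict list and ranked lists without a threshold, and for each replicate a thresholded and a ranked list. Which aligner and caller were used, and how signals were scaled, is not given in the sources used here. Each peak's signal is the authors' deposited value and served to rank peaks inside each list. Replicate signals stand side by side without rescaling, and read depth is unknown.

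Genes and starts came from Ensembl release 115 (BDGP6) and sequences from RefSeq release 6. Arm lengths fitted the peaks. Placement of summits was tested on simulated data. The 10 genes, the 40 further genes and the motifs were chosen with earlier results of these data known. Every one of the 10 genes is named, each further gene with a conservative peak, and neighbours whose start was nearest. Windows ran from 2 kb upstream of a gene to its end, and summits were counted in them. A replicate peak was matched to the conservative summit nearest to it. There was 1 group and no control list, so no test was made. Intervals on shares are exact (Clopper-Pearson) 95% intervals that cover counting error only. Alternatives covered the list, each replicate alone, the gene window and the motif window. Tools were Python 3.11.15 with pandas 2.3.3, numpy 2.4.6, matplotlib 3.10.9 and scipy 1.17.1.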

Additional observations from a re-analysis of the deposited data

How the results depend on the processing

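The count of the 10 genes with a conservative peak was 6 with the stronger 50% of the list (Dl, fng, numb and H lost), 7 without replicate 1 (Dl, fng and H lost) and 10 without replicate 2. It was 7 in gene bodies only, where Su(H), H and gro were lost because their summits lie upstream. The strongest N summit lies upstream too, and N was kept only by its summit of 2.83, not a separate peak in either replicate. By nearest coding start the count was 9, and neur was lost. Of the 40 further genes, 10 had a peak with the stronger 50% of the list, 7 in gene bodies only and 10 by nearest coding start, beside 17. The share of all protein-coding genes was 29.5% without replicate 1 and 43.7% without replicate 2. It was not computed under the other settings named here, so the counts of both gene lists there have no background. The 24 peaks of the 10 windows became 10 with the stronger 50% of the list and 13 in gene bodies only, and ran from 14 to 28 when 1 replicate was left out. Summits with GAGAGA rose from 3 to 5 with windows of 100 bp or the less strict list, and those with the Runx sequence from 1 to 2 with the less strict list. No paired analysis was possible because there is only 1 group. The lists hold no read depth, the signals carry no stated scale between replicates, and with 2 replicates the order of genes with close signals cannot be set. Peaks at divergent or overlapping starts cannot be assigned to a single gene.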
